A study of Saccharomyces cerevisiae with 20 samples.

Results

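A set of 7 yeast genes with known or proposed control through their mRNA leaders was followed: *GCN4*, *HOL1*, *SCH9*, *YAP1*, *CAD1*, *HAP4* and *INO2*. They were taken by name from 5778 genes, as a list chosen with earlier results of these data known. All 7 genes were present in the 9 comparison tables of transcript-mapped reads, and 4 of the 7 (*GCN4*, *HOL1*, *SCH9* and *YAP1*) had a 5′ untranslated region (UTR) density in every one of the 20 samples. The 5′ UTR table listed 3933 genes, of which 1218 had all 20 values. *INO2* had 5 values on its line, which could not be assigned to samples, and *CAD1* and *HAP4* were not listed there.

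The study asked which mRNAs keep their ribosomes when the cap-binding protein eIF4E, encoded by *CDC33*, is depleted. The 4 groups were haploid BY4741 cells: *cdc33-ts4-2* cells at 37°C and at 25°C, and *CDC33* cells at 37°C and at 25°C. *cdc33-ts4-2* is a temperature-sensitive allele, and both it and the wild-type *CDC33* were integrated at the *CDC33* locus next to a *HIS3* marker. Cells grew in YPD at 25°C, each culture was divided, and its parts spent 1 h at 37°C or 25°C before cycloheximide was added, so a temperature contrast holds the heat shift in both strains and eIF4E loss in addition in *cdc33-ts4-2* cells. The mutant is described as having less eIF4E than *CDC33* cells already at the permissive temperature, which limits it as an unperturbed baseline. Ribosome-protected fragments (footprints, ribosome profiling) were sequenced in 2 samples per group and poly(A)-selected mRNA (RNA-seq) in 3 samples per group. The level of *CDC33* in single samples was not part of the values used here, so the strain labels were not checked against it.

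An upstream open reading frame (uORF) is a short coding sequence in the leader, ahead of the main coding sequence (CDS). Ribosomes that scan from the cap meet it first, and its translation can keep some of them from the main start codon. *GCN4*, a bZIP activator of amino acid biosynthesis genes, is the textbook case: ribosomes that translate its first uORF can resume scanning, and when ternary complex is scarce they pass the inhibitory last uORF and initiate on the main CDS. *HOL1* encodes a polyamine transporter whose translation is repressed through a uORF. *YAP1* and its paralogue *CAD1* (also *YAP2*) encode bZIP factors of the oxidative and metal stress responses. *HAP4* encodes the activating subunit of the respiratory HAP complex, *INO2* a bHLH activator of phospholipid genes, and *SCH9* a protein kinase downstream of TORC1.

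The reading frames below are elements through which these leaders are known to act, or short frames that end before the main start codon. In the labels, nearest the CDS means nearest among the frames that end before the main start codon. All are sense-strand sequence of the R64 assembly (RefSeq), 5′ to 3′, with the start and the stop codon in capitals.
GCN4 uORF 1: ATGgcttgcTAA
GCN4 uORF 2: ATGtgtTAA
GCN4 uORF 3: ATGtacccgTAG
GCN4 uORF 4: ATGtttccgTAA
HOL1 uORF: ATGctattactaccaagtTGA
YAP1 frame nearest the CDS: ATGaacacgagccattttTAG
CAD1 frame nearest the CDS: ATGgggtgttactttTAA
HAP4 frame 1: ATGctatctacaggtccactttacactTAA
HAP4 frame 2: ATGggttgcTGA
The *GCN4* gene (YEL009C) lies at chrV:138918-139763 on the minus strand. Its uORFs start 361, 293, 176 and 151 nt ahead of the start codon, at chrV:140113-140124, chrV:140048-140056, chrV:139928-139939 and chrV:139903-139914. *GCN4* uORFs 3 and 4 both end in the codon CCG before the stop, whereas uORF 1 ends in TGC and uORF 2 in TGT. The *HOL1* frame (gene YNR055C, chrXIV:728426-730186, minus strand) starts 215 nt upstream at chrXIV:730381-730401 and has 6 sense codons. The *YAP1* frame (gene YML007W, chrXIII:253848-255800, plus strand) starts 85 nt upstream at chrXIII:253763-253783 and also has 6 sense codons. The *CAD1* frame (gene YDR423C, chrIV:1318046-1319275, minus strand) starts 56 nt upstream at chrIV:1319314-1319331. Another *CAD1* frame, not printed, starts nearer, 22 nt upstream, and runs past the start codon. The *HAP4* frames (gene YKL109W, chrXI:232227-233891, plus strand) start 249 and 61 nt upstream, at chrXI:231978-232007 and chrXI:232166-232177.

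**Figure D1:**
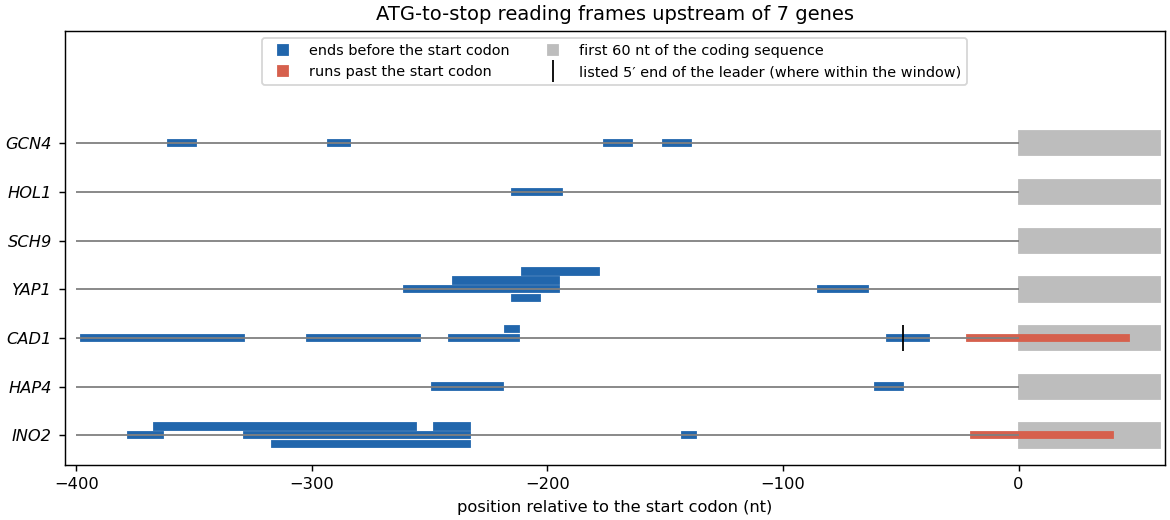
Map of every ATG-to-stop reading frame that starts on the sense strand within 400 nt ahead of the start codon of the 7 genes, with position relative to the start codon in nt on the x axis. Blue frames end before the start codon, red frames run past it, and the tick marks the listed 5′ end of the *CAD1* leader, 49 nt from the start codon. *GCN4* has 4 frames and *SCH9* none.

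The letters ATG, searched on the sense strand in the 400 nt before each start codon, are common: 98% of 5997 genes held at least 1, with a median of 6, and 97.8% held at least 1 frame that closed before the start codon. In the map of upstream frames the presence of a frame is therefore ordinary. The share of genes with fewer ATGs was 0% for *SCH9*, 2% for *HOL1* and 5.77% for *HAP4*. It was 21.6% for *GCN4*, 33.4% for *YAP1*, 47.4% for *CAD1* and 61.2% for *INO2*. *GCN4* had 4 ATGs in this window, and 4 also in its listed leader of 726 nt, which the transcript table records as carrying 4 uORFs. *HOL1* had 1 ATG, a number shared with 3.77% of genes. *SCH9* (YHR205W, chrVIII:509363-511837, plus strand) had 0, as did 2% of genes (120 of 5997). That says only that these letters are not in this window, since the leader length of *SCH9* was not listed in the table used here. *YAP1* had 5 ATGs, *HAP4* 2, *CAD1* 6 and *INO2* (YDR123C, chrIV:698554-699468, minus strand) 7. In *CAD1* the listed leader is 49 nt and carries 0 uORFs in the table. The frame at 56 nt starts outside that leader, and 1 ATG inside it, 22 nt ahead of the start codon, opens a frame of 22 sense codons that runs past the start codon. *CAD1* lies 111 nt from *DYN2*, its upstream neighbour on the same strand.

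The measurement for the leaders is the 5′ UTR density: the authors' reads per length in the leader, divided by the average coverage of the CDS of the same gene. A density of 1 means that the leader carried as many reads per nucleotide as the CDS. A lower value can come from fewer reads in the leader or more in the CDS, and these cannot be told apart in a ratio. These are bulk cultures, so the number of cells and the RNA per cell cannot be told apart either. Read counts were not in these tables, so the depth behind each density is unknown and no counting interval can be given.

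Across all 1218 genes, the median leader had a footprint density well below 1 in every sample. In single samples the median footprint density was 0.189 and 0.182 in *cdc33-ts4-2* at 37°C, against 0.0747 and 0.0672 in *cdc33-ts4-2* at 25°C. In *CDC33* it was 0.0772 and 0.1004 at 37°C, against 0.0379 and 0.0508 at 25°C. The median mRNA density of single samples lay between 0.350 and 0.678. Footprint densities of the typical leader were therefore higher at 37°C than at 25°C in both strains. On the log2(density + 0.01) scale used for all tests, the median leader changed by 0.80 in *cdc33-ts4-2* and 0.73 in *CDC33* at 37°C against 25°C. Member changes are set against these values below. The rise was not limited to leaders. The median 3′ UTR footprint density, averaged over samples, was 0.0136 at 37°C against 0.00102 at 25°C in *cdc33-ts4-2*. In *CDC33* the 3′ UTR values were 0.00275 at 37°C against 0.000679 at 25°C. All these 3′ UTR values were near 0, and the cause of the rise was not tested. The study's quality control found neither the usual length distribution of footprints nor an enrichment for 1 reading frame, so frame could not be used to assign leader footprints to a uORF.

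Among the 1218 leaders with all 20 values, *GCN4* had the highest footprint density in *CDC33* cells, relative to its own CDS. In the mutant at 37°C its density was below that of its other groups. Its footprint density was 0.620 and 0.533 in *cdc33-ts4-2* at 37°C, against 5.10 and 3.75 in *cdc33-ts4-2* at 25°C. In *CDC33* it was 9.24 and 6.59 at 37°C, against 17.9 and 28.5 at 25°C. No 2 groups overlapped, a separation whose share over all genes was not computed. In ascending order the means were 0.577 ± 0.0613 in *cdc33-ts4-2* at 37°C, 4.43 ± 0.951 in *cdc33-ts4-2* at 25°C, 7.91 ± 1.87 in *CDC33* at 37°C and 23.2 ± 7.47 in *CDC33* at 25°C (SD, n = 2 each). This order differed from that of the median leader, which was highest in *cdc33-ts4-2* at 37°C and lowest in *CDC33* at 25°C.

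**Figure D2:**
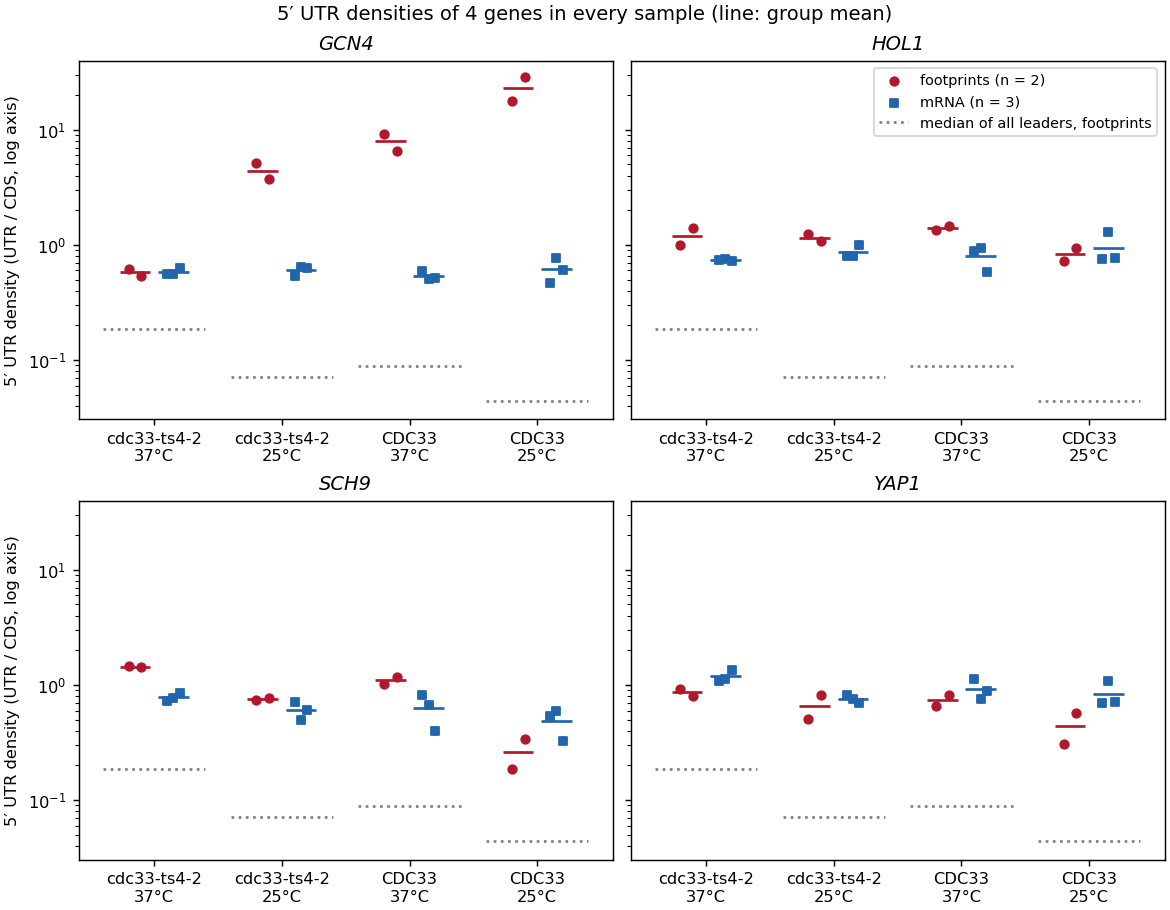
5′ UTR density (UTR reads per length over CDS coverage, log axis) of 4 genes in every sample, with footprints as red circles and mRNA as blue squares, horizontal lines at group means and dotted lines at the median footprint density of all 1218 leaders. *GCN4* footprints span 0.533 to 28.5 while *GCN4* mRNA stays between 0.468 and 0.774.

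The plot of densities by sample shows that the *GCN4* range belongs to the footprints. *GCN4* mRNA density was 0.556, 0.554 and 0.629 in *cdc33-ts4-2* at 37°C, against 0.533, 0.644 and 0.626 in *cdc33-ts4-2* at 25°C. In *CDC33* it was 0.595, 0.504 and 0.515 at 37°C, against 0.468, 0.774 and 0.607 at 25°C. The mRNA groups overlapped throughout. The ratio of the mean footprint density to the mean mRNA density of *GCN4* was 0.995 in *cdc33-ts4-2* at 37°C and 7.36 in *cdc33-ts4-2* at 25°C, and 14.7 in *CDC33* at 37°C and 37.7 in *CDC33* at 25°C. The same ratio for the median leader was 0.329, 0.140, 0.217 and 0.0984 in these 4 groups in the same order. In *cdc33-ts4-2* at 37°C, footprints and mRNA of *GCN4* thus had overlapping densities, whereas in the other 3 groups every footprint sample was above every mRNA sample. *HOL1* and *SCH9* also had every footprint sample above every mRNA sample in both *cdc33-ts4-2* groups and in *CDC33* at 37°C. The share of all genes with such a separation was not computed.

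By rank, *GCN4* had the highest footprint density of all 1218 leaders in *CDC33* cells at both temperatures. At 25°C the second leader in *CDC33* was that of *GCN2*, the eIF2α kinase gene upstream of *GCN4* in the same pathway, with a mean of 6.31. *GCN4* ranked 353rd in *cdc33-ts4-2* at 37°C, at the 71st percentile, and 4th in *cdc33-ts4-2* at 25°C, behind *PLB3*, *ATG40* and *MNR2*. *HOL1* ranked 176th, 72nd, 70th and 51st in *cdc33-ts4-2* at 37°C and 25°C and *CDC33* at 37°C and 25°C. *SCH9* ranked 127th, 136th, 102nd and 232nd in the same groups, and *YAP1* 259th, 160th, 174th and 138th. All 4 leaders were thus above the median leader in every group.

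**Figure D3:**
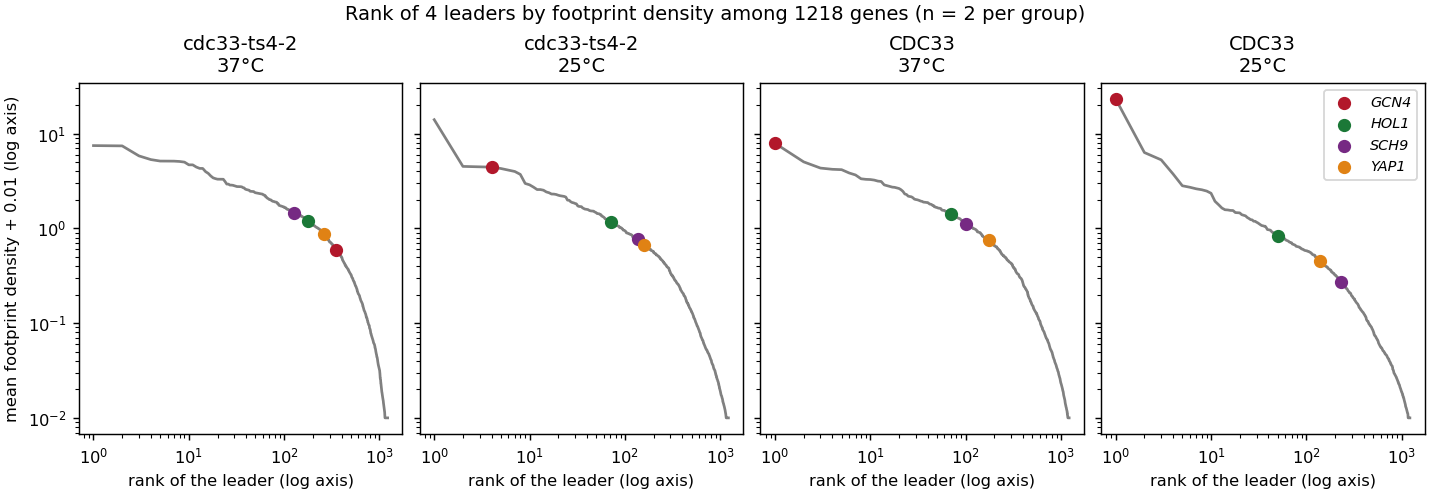
Mean footprint density + 0.01 of each of 1218 leaders (log axis) against its rank (log axis) in each of the 4 groups, n = 2 samples per group, with *GCN4*, *HOL1*, *SCH9* and *YAP1* marked. *GCN4* is 1st in both *CDC33* panels, 4th in *cdc33-ts4-2* at 25°C and 353rd in *cdc33-ts4-2* at 37°C.

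The temperature change of the *GCN4* leader was tested with limma across the 1218 genes. In *cdc33-ts4-2* the footprint density at 37°C was 0.130 times that at 25°C, a log2 change of −2.91 ± 0.39 (SE) with an adjusted p of 0.0157 by limma. The *GCN4* density fell while the median leader moved by 0.80 in the other direction, which puts *GCN4* at −3.71 relative to that median. It was the 5th lowest change of 1218, and 1 of the 4 members was called lower against 0.328% of all genes. Without overlap, 4.52% of genes had every 37°C sample below every 25°C sample in this contrast, and *GCN4* was the member among them. The call was lost when any of the 4 *cdc33-ts4-2* footprint libraries was left out (limma adjusted p between 0.0585 and 0.118 with *cdc33-ts4-2* at 37°C replicate 1 or 2 or at 25°C replicate 1 or 2 removed), with the change between −3.13 and −2.68.

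In *CDC33* cells the *GCN4* change had the same sign. The footprint density at 37°C was 0.341 times that at 25°C, a log2 change of −1.53 ± 0.39 (SE) that missed the threshold (limma adjusted p = 0.0546), or −2.27 relative to the median leader. With genes of low density removed, or with each sample centred on its median, it passed (limma adjusted p = 0.033 and 0.0284). Every 37°C sample was below every 25°C sample, as for 7.96% of genes. The difference between the strains' changes was −1.37, with a 95% interval from −2.73 to −0.01, and was not significant (limma adjusted p = 0.458). By this test 0 of the 4 members differed between strains against 0.246% of all genes, and 2 of the 4, *GCN4* and *SCH9*, had an unadjusted p under 0.05, as did 10.8% of all genes.

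With mRNA density taken into account, the *GCN4* leader footprint density, a ratio to its own CDS, was lower at 37°C in both strains. In a joint fit of all 20 samples, the footprint change minus the mRNA change was −2.86 ± 0.36 (SE) in *cdc33-ts4-2* (limma adjusted p = 0.000348), and this call held in all 26 alternatives, with adjusted p between 8.46e-06 and 0.00976. *GCN4* was 1 of the 4 members among the 1.23% of genes called lower. In *CDC33* it was −1.37 ± 0.36 (SE, limma adjusted p = 0.0164), when 0.657% of genes were called lower. That call was lost without *CDC33* footprints at 25°C replicate 2 (limma adjusted p = 0.0551) or at 37°C replicate 2 (limma adjusted p = 0.13), over a range of 0.00202 to 0.13 in all 26 alternatives. The difference between the strains was −1.49 with a 95% interval from −2.57 to −0.41 (limma adjusted p = 0.257), and 0 of the 4 members passed against 1.31% of all genes. Under an unadjusted p of 0.05 there was 1 of the 4 (*GCN4*) against 11.7%.

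**Figure D4:**
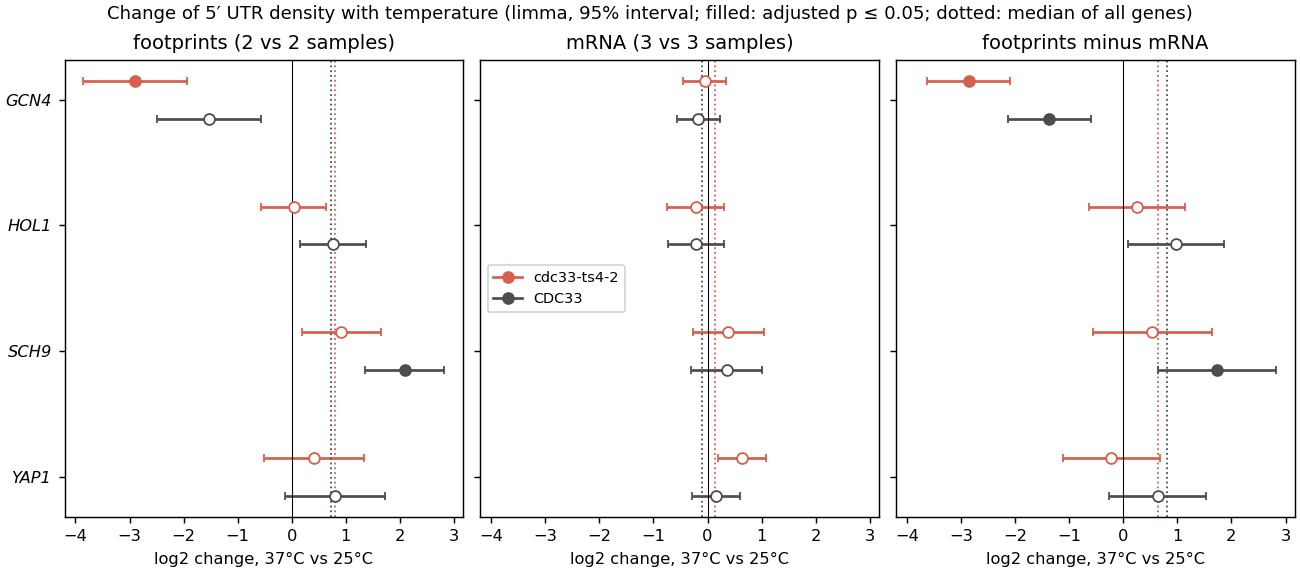
log2 change of the 5′ UTR density at 37°C against 25°C (x axis) of 4 genes in *cdc33-ts4-2* (red) and *CDC33* (grey), for footprints, mRNA and footprints minus mRNA, with 95% intervals from limma. Filled points have an adjusted p of 0.05 or less and dotted lines mark the median of all 1218 genes, and *GCN4* is the gene whose footprint intervals lie below 0 in both strains.

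The strains were also compared at each temperature, a contrast chosen after the values were seen. At 37°C the *GCN4* footprint density in *cdc33-ts4-2* was 0.0729 times that in *CDC33*, a log2 difference of −3.74 ± 0.39 (SE, limma adjusted p = 0.0173) and the 2nd lowest of 1218. *GCN4* was 1 of the 4 members called lower against 0.246% of all genes, and 1 of the 4 without overlap on the lower side against 4.52%. This call was lost when either *CDC33* library at 37°C or any of the 4 *cdc33-ts4-2* libraries was left out (limma adjusted p 0.0654 to 0.128, differences from −3.98 to −3.50 over all 8 such fits). With the replicate number added to the fit as a block, the 37°C difference also missed the threshold (limma adjusted p = 0.0541). At 25°C the density in *cdc33-ts4-2* was 0.191 times that in *CDC33*. The log2 difference of −2.37 ± 0.39 (SE) missed the threshold (limma adjusted p = 0.0782). It passed without *CDC33* at 25°C replicate 2 (limma adjusted p = 0.0296) and after centring (limma adjusted p = 0.0246). None of the 4 members (0) was called at 25°C against 0.328% of genes, and 2 of the 4 (*GCN4* and *SCH9*) had an unadjusted limma p under 0.05 against 25.7%. The *GCN4* samples did not overlap there, as for 8.29% of genes on the lower side. The median leader was higher in *cdc33-ts4-2* by 0.60 at 37°C and by 0.46 at 25°C on the log2 scale, so *GCN4* stood at −4.34 and −2.83 relative to it.

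*SCH9* was highest in the group where *GCN4* was lowest, and lowest where *GCN4* was highest. Its footprint density was 1.45 and 1.42 in *cdc33-ts4-2* at 37°C, against 0.735 and 0.776 in *cdc33-ts4-2* at 25°C. In *CDC33* it was 1.03 and 1.18 at 37°C, against 0.185 and 0.340 at 25°C. No groups overlapped, and the means of 1.43 ± 0.0210, 0.755 ± 0.0287, 1.10 ± 0.105 and 0.262 ± 0.109 (SD, n = 2 each) in those 4 groups followed the order of the median leader. The share of all genes with 4 separate groups was not computed. Separation in the same direction within a strain or a temperature was common, at 47.7% to 62.4% of genes. In *CDC33* the *SCH9* leader density rose 4.20-fold at 37°C. The log2 change was 2.09 ± 0.29 (SE, limma adjusted p = 0.0227), or 1.35 above the median leader. *SCH9* was 1 of the 4 members called higher, against 13.5% of all genes. The call was lost without either *CDC33* library at 37°C or any of the 4 *cdc33-ts4-2* libraries (limma adjusted p 0.0512 to 0.137, change 1.67 to 2.51 over all 8 such fits). It was also lost with samples centred on their medians (1.22, limma adjusted p = 0.0555).

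In *cdc33-ts4-2* the change of *SCH9* was 0.92 ± 0.29 (SE, limma adjusted p = 0.0753), 0.11 above the median leader, and after centring the sign turned (−0.36). Relative to mRNA the *SCH9* change was 1.73 in *CDC33* (limma adjusted p = 0.0266), where 21.1% of genes were called higher, and 0.53 in *cdc33-ts4-2* (limma adjusted p = 0.511). After centring, the value in *CDC33* was 0.74 (limma adjusted p = 0.268), and with a pseudocount of 0.001 it was 1.77 (limma adjusted p = 0.0622). It missed the threshold also without *CDC33* footprints at 25°C replicate 1 or at 37°C replicate 1 or 2, without *cdc33-ts4-2* footprints at 25°C replicate 1 or 2, and without *CDC33* mRNA at 25°C replicate 2 (limma adjusted p from 0.0503 to 0.144). The strains' footprint changes differed by −1.17, with a 95% interval from −2.20 to −0.14 (limma adjusted p = 0.412). At 25°C the *SCH9* density in *cdc33-ts4-2* was 2.88 times that in *CDC33*, a log2 difference of 1.55 (limma adjusted p = 0.0782). *SCH9* mRNA density was 0.725, 0.775 and 0.852 in *cdc33-ts4-2* at 37°C, against 0.712, 0.500 and 0.601 at 25°C. In *CDC33* it was 0.823, 0.674 and 0.398 at 37°C, against 0.538, 0.599 and 0.326 at 25°C, with overlap.

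*HOL1* had a leader denser than the median in every group, and no footprint change with temperature that passed the test. Its footprint density was 1.00 and 1.39 in *cdc33-ts4-2* at 37°C, against 1.24 and 1.07 at 25°C, and these samples overlapped. In *CDC33* it was 1.34 and 1.47 at 37°C, against 0.720 and 0.939 at 25°C, without overlap. The changes were 0.03 in *cdc33-ts4-2* (95% interval −0.57 to 0.64, limma adjusted p = 0.956) and 0.76 in *CDC33* (95% interval 0.15 to 1.37, limma adjusted p = 0.0854). The strains' changes differed by −0.72 (limma adjusted p = 0.497). Since the median leader moved by 0.80 in *cdc33-ts4-2*, *HOL1* stood 0.77 below it, and with samples centred on their medians its change became −1.24 and passed the test (limma adjusted p = 0.0201), in a fit where the median change of all genes was itself −0.47. In that centred fit, 216 of the 1218 genes were called lower and 25 higher. Centring also gave −1.24 for *HOL1* in *cdc33-ts4-2* against *CDC33* at 37°C (limma adjusted p = 0.0369). The uncentred value was −0.24 (limma adjusted p = 0.533). Between strains at 37°C the median change of all genes after centring was −0.39, and 84 genes were called lower and 7 higher.

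*HOL1* mRNA density was 0.743, 0.756 and 0.730 in *cdc33-ts4-2* at 37°C, against 0.807, 0.803 and 1.00 at 25°C. In *CDC33* it was 0.883, 0.949 and 0.586 at 37°C, against 0.757, 1.30 and 0.777 at 25°C. The *cdc33-ts4-2* samples did not overlap, which 3.28% of genes showed in this direction, although the change of −0.22 was not significant (limma adjusted p = 0.794). In the 3′ UTR, where ribosomes are scarce, *HOL1* ranked high. Its 3′ UTR footprint density was 0.0965 and 0.0800 in *cdc33-ts4-2* at 37°C, against 0.178 and 0.115 at 25°C. In *CDC33* it was 0.0200 and 0.0600 at 37°C, against 0.0358 and 0.0274 at 25°C. *HOL1* ranked 2nd of 1208 genes with all 20 3′ UTR values in *cdc33-ts4-2* at 25°C, and 211th, 30th and 16th in *cdc33-ts4-2* at 37°C, *CDC33* at 37°C and *CDC33* at 25°C. These 3′ UTR values were not tested. By comparison *GCN4* was listed at 0 in the 3′ UTR in all 4 *CDC33* footprint samples and reached at most 0.0104 in *cdc33-ts4-2*.

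*YAP1* had a mean leader footprint density below its mean mRNA density in every group, and no change that passed the test. Footprint and mRNA samples overlapped in *cdc33-ts4-2* at 25°C and in *CDC33* at 37°C. Its footprint density was 0.917 and 0.807 in *cdc33-ts4-2* at 37°C, against 0.508 and 0.813 at 25°C, with overlap. In *CDC33* it was 0.662 and 0.818 at 37°C, against 0.308 and 0.573 at 25°C, without overlap. The changes of 0.41 in *cdc33-ts4-2* (95% interval −0.51 to 1.34, limma adjusted p = 0.445) and 0.79 in *CDC33* (95% interval −0.13 to 1.72, limma adjusted p = 0.19) lay 0.39 below and 0.06 above the median leader. *YAP1* mRNA density was 1.09, 1.14 and 1.34 in *cdc33-ts4-2* at 37°C, against 0.824, 0.763 and 0.691 at 25°C, without overlap. The log2 change of 0.64 missed the threshold (limma adjusted p = 0.129). In *CDC33* the mRNA density was 1.12, 0.752 and 0.887 at 37°C, against 0.693, 1.08 and 0.717 at 25°C. Relative to mRNA, the *YAP1* change in *cdc33-ts4-2* was −0.22 (limma adjusted p = 0.757), and −1.35 after centring, which passed (limma adjusted p = 0.0266). In that centred fit the median change of all genes was −0.493, and 172 of the 1218 genes were called lower and 23 higher.

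Counted over the 4 leaders, samples without overlap were common among all genes. In *CDC33*, 3 of the 4 leaders (*HOL1*, *SCH9* and *YAP1*) had every 37°C footprint sample above every 25°C sample, as did 55.7% of genes. In *cdc33-ts4-2* 1 of the 4, *SCH9*, did so, against 62.4%. Between strains, *cdc33-ts4-2* samples were all above *CDC33* samples for 1 of the 4 (*SCH9*) at 37°C against 54.4%, and for 2 of the 4 (*HOL1* and *SCH9*) at 25°C against 47.7%. In the mRNA, 2 of the 4 (*SCH9* and *YAP1*) were above without overlap in *cdc33-ts4-2*, against 17.5%. With 2 samples against 2 an exact permutation test cannot go below p = 0.333, and with 3 against 3 not below 0.10, so these separations carry no test of their own.

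The mRNA densities of the 4 leaders gave no call by limma. In *cdc33-ts4-2*, 0 of the 4 passed against 3.78% of all genes, and 1 of the 4 (*YAP1*) had an unadjusted p under 0.05 against 14%. In *CDC33*, 0 of the 4 passed against 0.575%, with 0 under an unadjusted p of 0.05 against 10.9%. For the difference between strains it was 0 of the 4 against 0.985%, and again 0 under an unadjusted p of 0.05 against 12.8%.

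Footprints were set against mRNA over the 4 strain and temperature groups together. Most leaders held fewer footprints than mRNA reads relative to their CDS, with a median log2 difference of −1.88. *GCN4* was higher by 2.97 ± 0.13 (SE, limma adjusted p = 2.76e-11), the 8th highest of 1218, and an exact permutation test that exchanged the assay labels within each group gave a 2-sided p of 0.0007. *HOL1* was higher by 0.43 (limma adjusted p = 0.0121, exact permutation p = 0.0104). *SCH9* was at 0.29 (limma adjusted p = 0.146, exact permutation p = 0.2312), and passed with a pseudocount of 0.1 (limma adjusted p = 0.0411) and after centring (2.64, limma adjusted p = 1.82e-10). *YAP1* was lower by −0.48 (limma adjusted p = 0.00724, exact permutation p = 0.0016), yet 1.40 above the median leader, and its sign turned after centring (1.86). So 2 of the 4 were called higher against 10.8% of all genes, and 1 of the 4 lower against 75.1%. These counts depend on the scaling, since after centring all 4 were called higher (*GCN4* at 5.32 and *HOL1* at 2.78) and so were 601 of the 1218 genes.

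Other mRNAs with reported uORFs were taken as a list of 19 for comparison, of which 2 had all 20 values. For both of these the transcript table lists 0 uORFs. *LEU4*, which encodes an α-isopropylmalate synthase of leucine biosynthesis, had footprint densities of 0.783 and 0.769 in *cdc33-ts4-2* at 37°C, against 0.285 and 0.317 at 25°C. In *CDC33* they were 0.221 and 0.429 at 37°C, against 0.0965 and 0.137 at 25°C. Relative to mRNA, the *LEU4* leader density rose by 1.33 in *cdc33-ts4-2* (limma adjusted p = 0.0242), where 10.4% of genes were called higher. In *CDC33* it rose by 1.82 (limma adjusted p = 0.00358), where 21.1% of genes were called higher. Both calls were lost after centring (limma adjusted p = 0.743 and 0.164), and the first also without any of the 4 *cdc33-ts4-2* footprint libraries (limma adjusted p 0.0527 to 0.122). *TIF4631*, which encodes eIF4G1, an eIF4E partner, had no call with temperature, and its footprint densities ran from 0 to 0.0872. The lengths listed for *TIF4631*, 120 nt for the leader and 200 nt for the 3′ UTR, are default lengths for genes without a mapped UTR. *LEU4* and *TIF4631* were both called lower in footprints than in mRNA over the 4 groups (−1.34 and −3.29, limma adjusted p = 7.67e-08 and 1.58e-06), as were 75.1% of all genes. After centring *LEU4* was higher (1.01) while *TIF4631* stayed lower (−0.95). In neither of them did the mean footprint density exceed the mean mRNA density in any group, which also held for the median leader.

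The transcript table recorded at least 1 uORF for 13 genes with all 20 values, *GCN4* among them, and 0 for 254. The median footprint density of the 13 was 0.293 in *cdc33-ts4-2* at 37°C and 0.126 in *cdc33-ts4-2* at 25°C, and 0.218 in *CDC33* at 37°C and 0.0937 in *CDC33* at 25°C. For the 254 it was 0.186, 0.0648, 0.0803 and 0.0404 in the same order. The difference between these sets was not tested. *GCN4*, itself 1 of the 13, was above the median of the 13 in all 4 groups.

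As a description, the 3 genes whose footprint densities most resembled each member were sought by Pearson's r of log2(density + 0.01) over the 8 footprint samples, among 911 genes above 0 in all 8. For *GCN4* they were *RPS20* (r = 0.946), *PIC2* (r = 0.846) and *GCN2* (r = 0.81). *RPS20* averaged 0.00804 in *cdc33-ts4-2* at 37°C, below the pseudocount of 0.01, and 0.0381 at 25°C. In *CDC33* it averaged 0.0589 at 37°C and 0.0714 at 25°C. *PIC2* averaged 0.190 at 37°C and 0.379 at 25°C in *cdc33-ts4-2*, and 0.292 and 0.389 in *CDC33*. *GCN2* averaged 3.29 in *cdc33-ts4-2* at 37°C and 4.11 at 25°C, and 4.33 in *CDC33* at 37°C and 6.31 at 25°C. For *SCH9* they were *DMA1* (r = 0.995), *TIM21* (r = 0.994) and *MYO2* (r = 0.99). For *HOL1* they were *ASH1* (r = 0.967), *PKC1* (r = 0.952) and *YGR054W* (r = 0.946), and for *YAP1* they were *RIM15* (r = 0.992), *VPS17* (r = 0.964) and *SSD1* (r = 0.963). Among the members, *SCH9* and *YAP1* had r = 0.888, *HOL1* and *SCH9* 0.814, and *GCN4* and *SCH9* −0.774 over the same 8 samples. All points of these correlations come from the same libraries, which also differ in the level of the median leader.

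*CAD1*, *HAP4* and *INO2*, which lacked usable leader densities, could be described only by the authors' mean normalised counts over all samples of an assay. The footprint mean divided by the mRNA mean, set relative to the median of 5496 genes, gives the footprints per mRNA of a gene, in which gene length cancels. These are pooled values with no spread and no comparison between conditions. *GCN4*, with an authors' mean of 1396 for footprints and 8447 for mRNA, stood at 0.125 times the median gene, the 4.29th percentile. *HOL1*, with means of 370.2 and 1448, stood at 0.194 and the 6.91st percentile. Both thus had few footprints per mRNA, whereas *SCH9* was at 0.612 and *YAP1* at 0.964.

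**Figure D5:**
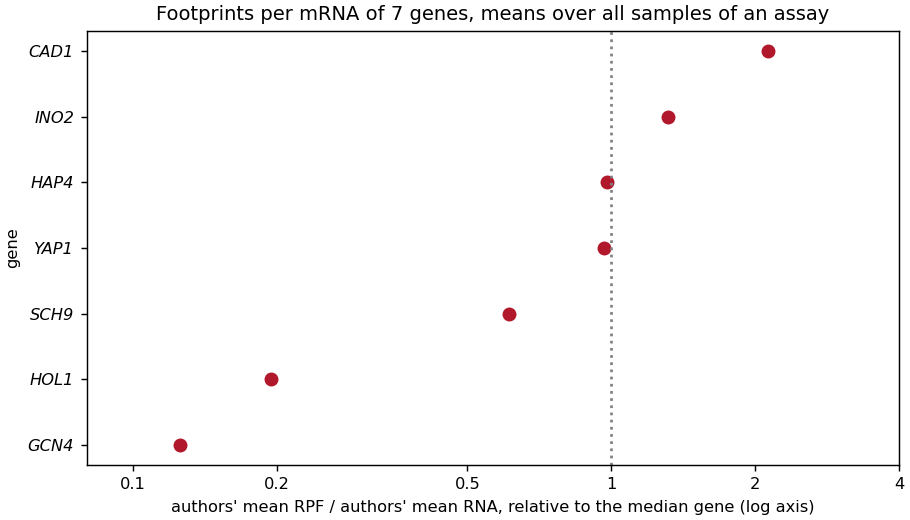
Authors' mean footprint count over authors' mean mRNA count of the 7 genes, relative to the median of 5496 genes (log axis, dotted line at 1), pooled over strains and temperatures and so without error bars. The genes run from 0.125 for *GCN4* to 2.12 for *CAD1*.

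The plot of footprints per mRNA places *HAP4* just below the median gene and *INO2* and *CAD1* above it. *HAP4* was at 0.981 (authors' means 303.8 for footprints and 235.3 for mRNA), *INO2* at 1.31 (118.5 and 68.5) and *CAD1* at 2.12 (313 and 112), the 82nd percentile.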

How the data were processed

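Ribosome profiling (8 samples) and RNA-seq (12 samples) of *cdc33-ts4-2* and *CDC33* yeast at 37°C and 25°C were used as deposited. Per the study's methods and processing notes, reads were trimmed with cutadapt (4.1 in the notes, a later version in the methods), mapped uniquely to R64 with STAR 2.7.10b and counted by strand with featureCounts 2.01, each read needing most of its length in a feature. UTRs were the longest mapped ones, or a default length. The authors deposited UTR densities as a ratio of UTR reads per length to CDS coverage. The authors deposited gene tables (Salmon 1.9.0, DESeq2 1.32.0) with a mean normalised signal per assay. Their fold changes, standard errors and p-values hold the study's own findings and were not used, nor were its lists and translation efficiency changes. The deposited transcript table gave leader length and uORF number, in other units, and its coding lengths equalled those of R64 in 868 of 868 genes compared.

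Densities of 1218 genes with 20 values were tested on log2(density + 0.01), with no filter, by limma 3.58.1 in R 4.3.3 (footprints, mRNA and joint fits, the joint fit with 1 variance weight per assay, Benjamini-Hochberg, call at 0.05). Replicates are separate samples per the labels, and the study calls them biological replicates. The limma fit was tested on simulated data. Named genes were the 7 members, up to 5 called genes of the comparison list with the largest change, and the 3 most similar patterns per member. *TIF4631*, the other comparison gene with all values, was named after its values were seen. Members and lists were chosen with earlier results of these data known, and the comparisons of strains at 1 temperature were added after seeing the data. Alternatives were other pseudocounts (0.001, 0.1), a filter on low values (above 0 in at least 6 footprint and all 12 mRNA samples, 1012 genes), centring each sample on its median, a replicate block, equal weights and leaving out each library.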

Additional observations from a re-analysis of the deposited data

How the results depend on the processing

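The *GCN4* results kept their direction in every footprint, joint and assay comparison under all alternatives tried, and the joint call in *cdc33-ts4-2* and the assay call also kept their side of the threshold. Changing one choice at a time, the results for the named genes kept direction and call in 51 of 52 with a pseudocount of 0.001 or without genes of low density, in 50 of 52 with a pseudocount of 0.1, in 20 of 20 with equal weights, in 653 of 704 with a library left out and in 27 of 52 with samples centred on their medians. Each lone sample left in a group was then assumed to vary like the other groups. The cause of these changes was not tested. With 2 footprint samples per group the 95% intervals of the *HOL1* and *YAP1* footprint changes in *cdc33-ts4-2* took in 0, and without read counts the depth behind each density is unknown.

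Numbers of genes called out of 1218 changed more, with temperature contrasts as 37°C against 25°C. With a pseudocount of 0.001 the strain difference had 5 calls in footprints (3 as reported), 9 relative to mRNA (16 as reported), the strains 18 at 25°C (4) and 31 at 37°C (58), and *CDC33* mRNA 4 (7). With a pseudocount of 0.1, *cdc33-ts4-2* footprints had 380 calls (209), the strain difference 1 and the strains at 37°C 168. Without genes of low density these were 341, 1 and 89, with 261 for *CDC33* footprints (170), 1 for the strains at 25°C and 4 for *CDC33* mRNA. Equal weights gave 227 for *cdc33-ts4-2* relative to mRNA (142).

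Centring turned the split of calls, and the median change of all genes in *cdc33-ts4-2* footprints was then −0.47 (0.80 as reported). Calls were then 25 higher and 216 lower in *cdc33-ts4-2* (205 and 4 as reported), 8 and 8 in *CDC33* (16 in all, against 164 and 6), and 7 and 84 between strains at 37°C (91 in all, against 55 and 3). Relative to mRNA they were 23 and 172 in *cdc33-ts4-2* (127 and 15) and 24 and 68 in *CDC33* (92 in all, against 257 and 8), for the strain difference 4 and 13 (5 and 11), and between assays 601 and 346 (131 and 915). Between strains at 25°C they were 2 and 3 (3 and 1), and in footprints for the strain difference 1 and 1 (3 and 0). For mRNA there were 30 calls in *cdc33-ts4-2* (46), 4 in *CDC33* and 3 for the strain difference (12). Values of members that changed sign with centring were, for footprints in *cdc33-ts4-2*, −1.24 for *HOL1*, −0.36 for *SCH9* and −0.86 for *YAP1*, and in *CDC33* −0.10 for *HOL1* and −0.070 for *YAP1*. Between strains they were −0.10 for *HOL1* at 25°C, and −0.61 for *SCH9* and −0.77 for *YAP1* at 37°C. Relative to mRNA they were −0.88 for *HOL1* and −0.60 for *SCH9* in *cdc33-ts4-2*, and −0.025 for *HOL1* and −0.36 for *YAP1* in *CDC33*. For the strain difference in mRNA they were −0.16 for *GCN4* and −0.25 for *SCH9*, and between assays 1.01 for *LEU4* and 1.86 for *YAP1*.

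With a library left out, calls ranged from 0 to 328 for *cdc33-ts4-2* footprints, 6 to 293 for *CDC33* footprints, 1 to 6 for their difference, 2 to 227 for the strains at 25°C and 0 to 133 at 37°C. They ranged from 30 to 46 for mRNA in *cdc33-ts4-2*, 4 to 9 in *CDC33* and 3 to 12 for the difference, and relative to mRNA from 28 to 224, 67 to 340 and 0 to 36. Members whose sign turned ranged from −0.20 to 0.27 (*HOL1*, footprints in *cdc33-ts4-2*), −0.82 to 0.059 (*YAP1*, footprint difference of strains) and −0.56 to 0.11 (*YAP1* relative to mRNA in *cdc33-ts4-2*). In mRNA they ranged from −0.13 to 0.0031 for *GCN4* in *cdc33-ts4-2*, and in *CDC33* from −0.35 to 0.0093 for *GCN4* and −0.35 to 0.040 for *HOL1*. For the strain difference in mRNA the ranges were −0.058 to 0.30 for *GCN4*, −0.26 to 0.13 for *HOL1* and −0.26 to 0.29 for *SCH9*.

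Cultures were divided between the temperatures, but the labels do not say that a replicate number marks a shared culture. Deviations of same-numbered 37°C and 25°C samples correlated at −0.0558 in *cdc33-ts4-2* and −0.0568 in *CDC33* for footprints. For mRNA they correlated at 0.0669 to 0.159 in *cdc33-ts4-2* and at −0.104 to −0.00166 in *CDC33*. With 2 footprint samples per group the deviations within a group mirror each other, so both replicate numbers give the same correlation. The small footprint correlations show little common deviation of same-numbered samples. They do not settle whether a culture was shared. A replicate block gave 113 calls for *CDC33* footprints, 1 for the strain difference, 2 for the strains at 25°C and 3 at 37°C, 4 for *CDC33* mRNA and 6 for its strain difference. With the block *GCN4* between strains at 37°C had a limma adjusted p of 0.0541, and no other call on a named gene changed.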
